A study of Mus musculus with 11 samples.

Results

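Olfactory receptors (genes named Olfr) and vomeronasal receptors (Vmn1r and Vmn2r) are the largest families of mouse receptor genes, and their genomic tiles were examined for 5-hydroxymethylcytosine (5hmC) in embryonic stem (ES) cells leaving pluripotency. The members were chosen by position: every autosomal 2 kb tile that overlaps the span, in the mouse build GRCm38, of a protein-coding gene whose symbol is Olfr or Vmn followed by a digit. The rule took 1458 genes (1104 Olfr, 231 Vmn1r and 123 Vmn2r) and 4304 tiles, of 1231381 autosomal tiles and 1362779 tiles in all. It leaves out 7 family genes on chromosome X. The genes Olfr100, Vmn2r122, Vmn1r186 and Vmn1r187 are listed within the first 3 Mb of a chromosome, which hold no reads there, and were set aside. That left 1454 genes in 4284 tiles: 2144 Olfr tiles, 414 Vmn1r tiles and 1726 Vmn2r tiles, of which 40 hold more than 1 member gene.

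The values come from HMCP-seq, in which DNA fragments carrying 5hmC are enriched with a kit and sequenced. The line TET_WT, the unedited parent of a line lacking the Tet genes, was measured as ES cells in 2i/Lif medium (day 0, 3 libraries), as epiblast-like cells (EpiLC) on day 1 (2 libraries, replicates 2 and 3) and as EpiLC on day 2 (3 libraries). The line DNMT_WT, the unedited parent of a line lacking the Dnmt genes, was measured as EpiLC on day 2 (3 libraries). Other cells of the study (knockouts, embryoid bodies) were not analysed here. Each origin is represented by 1 cell line, and nothing in the labels says that replicates were separate cultures, so a p-value measures the spread between libraries only. The libraries hold genomic DNA, so their values do not test which cell type was present, and more cells with 5hmC at a site cannot be told apart from more 5hmC per cell.

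5hmC is made from 5-methylcytosine by the TET enzymes, and in ES cells it is found mainly in the bodies of active genes and at regulatory elements. Receptor genes lie in long tandem arrays that most cells of the body keep silent and packed in heterochromatin. A mature olfactory neuron expresses an allele of a single olfactory receptor gene, and vomeronasal neurons are similarly restricted in their choice of Vmn1r or Vmn2r gene. Olfr proteins detect odorants, whereas the Vmn1r and Vmn2r families detect pheromones and other signals between animals. The coding part of an Olfr or Vmn1r gene is a single short exon, and Vmn2r genes are long and have several exons.

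The sequences below span 250 bases before to 50 bases after the annotated start of 7 members, in RefSeq's GRCm38.p6 annotation and read on the gene's strand, with CpG in capitals. Olfr281, Olfr283 and Olfr750 are the 3 receptor genes with the highest 5hmC, and Olfr95 rose most between day 0 and day 2. Olfr725 and Vmn1r14 were much lower in DNMT_WT. Vmn2r101 is among the lowest of the members with enough reads to be tested. Olfr281 is at chr15:98456062-98456361 on the plus strand, Olfr283 at chr15:98379148-98379447 on the minus strand, Olfr750 at chr14:51071393-51071692 on the minus strand and Olfr95 at chr17:37211802-37212101 on the minus strand. Olfr725 is at chr14:50035451-50035750 on the minus strand, Vmn1r14 at chr6:57233189-57233488 on the plus strand and Vmn2r101 at chr17:19576981-19577280 on the plus strand. The Vmn1r14 window lies near the end of that gene's analysed span, chr6:57226155-57234350, and not at its start.
Olfr281: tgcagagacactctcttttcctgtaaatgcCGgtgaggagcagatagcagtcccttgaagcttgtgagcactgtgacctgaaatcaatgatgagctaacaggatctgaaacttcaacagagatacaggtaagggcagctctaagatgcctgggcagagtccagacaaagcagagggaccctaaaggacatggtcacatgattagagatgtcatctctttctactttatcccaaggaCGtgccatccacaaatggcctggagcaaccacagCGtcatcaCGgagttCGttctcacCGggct
Olfr283: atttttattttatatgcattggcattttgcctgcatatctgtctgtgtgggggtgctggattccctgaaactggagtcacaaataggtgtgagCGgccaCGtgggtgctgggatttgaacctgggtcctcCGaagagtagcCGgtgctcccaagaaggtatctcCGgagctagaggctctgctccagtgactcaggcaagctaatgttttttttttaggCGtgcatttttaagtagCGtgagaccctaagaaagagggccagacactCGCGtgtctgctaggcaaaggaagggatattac
Olfr750: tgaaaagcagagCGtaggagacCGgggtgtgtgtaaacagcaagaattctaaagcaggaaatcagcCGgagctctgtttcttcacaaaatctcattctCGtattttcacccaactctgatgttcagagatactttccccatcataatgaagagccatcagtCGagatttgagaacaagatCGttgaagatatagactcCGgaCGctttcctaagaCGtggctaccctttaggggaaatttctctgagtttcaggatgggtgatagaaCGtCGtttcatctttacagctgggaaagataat
Olfr95: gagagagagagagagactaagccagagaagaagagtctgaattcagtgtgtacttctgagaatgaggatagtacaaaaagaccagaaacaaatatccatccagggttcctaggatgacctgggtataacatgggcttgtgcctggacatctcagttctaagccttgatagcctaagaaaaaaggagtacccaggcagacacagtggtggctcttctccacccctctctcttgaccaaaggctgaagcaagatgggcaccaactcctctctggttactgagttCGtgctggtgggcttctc
Olfr725: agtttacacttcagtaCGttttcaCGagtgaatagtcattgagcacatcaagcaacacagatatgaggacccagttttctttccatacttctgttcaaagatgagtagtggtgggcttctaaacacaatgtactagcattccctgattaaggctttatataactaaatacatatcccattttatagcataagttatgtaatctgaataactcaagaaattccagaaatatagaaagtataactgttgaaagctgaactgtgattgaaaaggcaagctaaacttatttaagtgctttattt
Vmn1r14: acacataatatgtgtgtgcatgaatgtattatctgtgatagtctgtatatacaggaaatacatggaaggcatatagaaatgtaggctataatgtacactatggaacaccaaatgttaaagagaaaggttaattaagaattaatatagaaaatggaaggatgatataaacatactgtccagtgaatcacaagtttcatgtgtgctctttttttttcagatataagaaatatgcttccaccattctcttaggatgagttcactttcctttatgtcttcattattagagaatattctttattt
Vmn2r101: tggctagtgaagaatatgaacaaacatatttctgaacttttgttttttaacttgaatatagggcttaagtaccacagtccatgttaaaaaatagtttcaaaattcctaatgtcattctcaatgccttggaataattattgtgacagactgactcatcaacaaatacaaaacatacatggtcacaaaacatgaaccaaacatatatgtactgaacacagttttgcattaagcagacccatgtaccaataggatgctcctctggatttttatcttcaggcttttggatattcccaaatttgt

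Among the printed windows, chosen for the 5hmC of their genes, those with the highest 5hmC hold the most capitals, but not in the same order. Olfr281 holds 6 CpG, Olfr283 holds 9 and Olfr750 holds 11, whereas Olfr95 holds 1, Olfr725 holds 2, and Vmn1r14 and Vmn2r101 hold 0. The 2 kb tiles that these windows touch averaged 11.2 RPKM (reads per kb of tile, on the authors' scale) for Olfr281, 9.64 for Olfr283 and 6.78 for Olfr750. They averaged 0.399 RPKM for Olfr95, 0.289 for Olfr725, 0.056 for Vmn1r14 and 0.144 for Vmn2r101. Olfr314 and Olfr71, also among the 5 highest members, have windows of 3 and 6 CpG that are not printed.

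Receptor promoters as a group are poor in CpG. RefSeq windows were given for 1260 of the 1454 members (1265 windows), and Olfr1344, described below, is one of those without. The median window held 1 CpG in the Olfr family, 1 in Vmn1r and 1 in Vmn2r, against 15 in 19780 windows of other protein-coding genes. No CpG at all was found in 31.1% of member windows and 2.75% of the others, and 5 or more CpG in 2.92% and 76.7%. The median GC content was 35% in Olfr, 36% in Vmn1r and 38% in Vmn2r windows and 57.7% in those of other genes. In 76.1% of member windows the annotated start begins an ATG, against 3.2% of other windows, so for most members the annotated start is the start codon and the window is not known to hold the transcription start.

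Member windows with more CpG had higher 5hmC in the tiles they touch. The median was 0.0713 RPKM for the 393 genes without CpG, 0.0767 for the 422 with 1, 0.0892 for the 250 with 2, 0.122 for the 158 with 3 to 4 and 1.29 for the 37 with 5 or more. Other protein-coding genes went from 0.120 RPKM without CpG to 0.904 with 3 to 4, and stood at 0.629 with 5 or more. Below 5 CpG the member median was thus lower than that of other genes in the same bin, and at 5 or more it was higher. The last bin is open, so CpG numbers are not matched in it. Windows of other genes held a median of 15 CpG over all bins and up to 67. The highest numbers were 13 in Olfr, 6 in Vmn1r and 23 in Vmn2r windows. Across the 1260 member genes the correlation of CpG number with log2 level was 0.408 (Pearson) and 0.171 (Spearman), and that of GC content was 0.437 and 0.274. These points share libraries, base composition and, among paralogs, ancestry, so the values are a description.

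**Figure D1:**
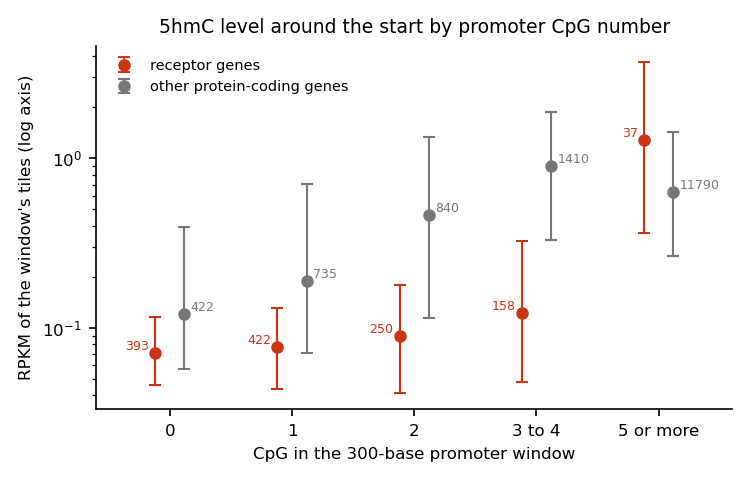
Level of 5hmC in the tiles under each promoter window (vertical axis, RPKM over 11 libraries, log axis) by the number of CpG in the 300-base window (horizontal axis). Points are medians, bars run from the lower to the upper quartile, and the printed numbers are genes. The 37 receptor genes with 5 or more CpG have a median of 1.29 RPKM, above the 0.629 of other genes. In the other bins receptor genes lie lower. The bin of 5 or more is open, and other genes reach up to 67 CpG in it.

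Letters recalling binding sites of regulators of receptor choice were counted on both strands, with no motif here containing another. The full Olf1/EBF palindrome occurred in 0.395% of member windows and 0.965% of windows of all protein-coding genes. The shorter TCCCNNGGA, of the same type and not contained in it, occurred in 3.56% and 5.12%, and in 16.2% of Vmn2r windows. The homeodomain type letters TAATTA occurred in 16.7% of member windows against 4.47% of all, and TAATTG in 20.7% against 6.85%. Both homeodomain motifs consist mostly of A and T, and the member windows are AT-rich. Of the printed windows, Olfr281 holds TCCCNNGGA, and Vmn1r14 and Vmn2r101 hold TAATTA.

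Near-identical copies may limit what can be read at some members, since reads that fit several places can be lost or placed at random. The rule used for such reads is not given in the sources used here, and its effect on these values was not tested. At least 50% of the window's 50-base words recurred in another promoter window for 111 members: 34.5% of Vmn1r windows, 20.5% of Vmn2r and 1.70% of Olfr. These 111 had a median of 0 RPKM, and 54.1% of them had no read in any library. The 945 members that share no such word had a median of 0.0938 RPKM, and the 204 that share some had 0.0745 RPKM. In all, 46 member genes (40 Vmn1r, 3 Olfr and 3 Vmn2r) had no read in any library. In addition, 58 members overlap another annotated gene, so a tile there cannot be assigned to the receptor alone.

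Depth differed between libraries, and the recovered reads ran from 7342015 (TET_WT day 1 replicate 2) to 51604034 (TET_WT day 0 replicate 1). These totals are 2.32 times those that the RPKM scale implies, in each library alike, so RPKM values compare between libraries but are not per recovered read. Member tiles took 6294 to 46171 of these reads per library. On day 0, replicate 2 stood apart: 55.3% of its member tiles had no read, although it held 29831997 reads, against 25% and 18.6% in replicates 1 and 3. Its part in the day 0 comparisons is given beside them.

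Receptor gene tiles were poor in 5hmC at every stage. Their mean was 0.242, 0.194 and 0.247 RPKM in day 0 replicates 1 to 3, 0.232 and 0.223 on day 1, 0.204, 0.197 and 0.197 on day 2, and 0.178 in each DNMT_WT library. The DNMT_WT libraries were below all others, and day 0 replicate 2 was below all day 2 libraries while the other day 0 libraries were above them. The group means were 0.228 ± 0.0292 (SD, n = 3) on day 0, 0.228 ± 0.00662 (n = 2) on day 1, 0.199 ± 0.00435 (n = 3) on day 2 and 0.178 ± 5.43e-05 (n = 3) in DNMT_WT. That is 23.9%, 23.9%, 20.9% and 18.6% of the mean of all autosomal tiles in the same libraries. Member tiles are 0.348% of autosomal tiles and held 0.0842%, 0.0840%, 0.0736% and 0.0656% of the reads. Without day 0 replicate 2 the day 0 mean was 0.245 RPKM. Low values were not particular to receptors: tiles of the Skint, Prl, Ugt2b, Cyp3a and Pramel gene families had lower means in each group (Other observations).

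Among the families, Olfr tiles were the highest, with 0.323 ± 0.0232 RPKM on day 0, 0.321 ± 0.00625 on day 1, 0.291 ± 0.00531 on day 2 and 0.255 ± 0.000418 in DNMT_WT. Vmn1r tiles stood at 0.133 ± 0.0378, 0.133 ± 0.00534, 0.103 ± 0.00559 and 0.0926 ± 0.00543 RPKM. Vmn2r tiles stood at 0.133 ± 0.0348, 0.135 ± 0.00994, 0.109 ± 0.00543 and 0.102 ± 0.00172 RPKM. Both vomeronasal families were thus below Olfr in every library. They overlapped each other on days 0, 1 and 2, and in DNMT_WT Vmn2r tiles were above Vmn1r tiles in all libraries.

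The DNA between receptor genes was also low, and the DNA beside the arrays was higher. Tiles without a gene inside the clusters had 0.285, 0.287, 0.238 and 0.209 RPKM in the 4 groups (day 0, day 1, day 2 and DNMT_WT). Tiles without a gene within 1 Mb outside the clusters had 0.765, 0.748, 0.768 and 0.778 RPKM. Other protein-coding genes that sit inside the clusters had 0.893, 0.927, 0.928 and 0.919 RPKM, and protein-coding genes elsewhere had 1.34, 1.36, 1.38 and 1.42. Tiles over 500 kb from any gene were below the receptor tiles in the mean of each group, with 0.191, 0.204, 0.148 and 0.119 RPKM. Receptor tiles, between-gene tiles and tiles far from genes all had lower means on day 2 than on day 1 and lower still in DNMT_WT, while protein-coding genes elsewhere went the opposite way and other genes inside the clusters changed little. The flank, between-gene and far values carry the same dependence on the library total as the members.

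**Figure D2:**
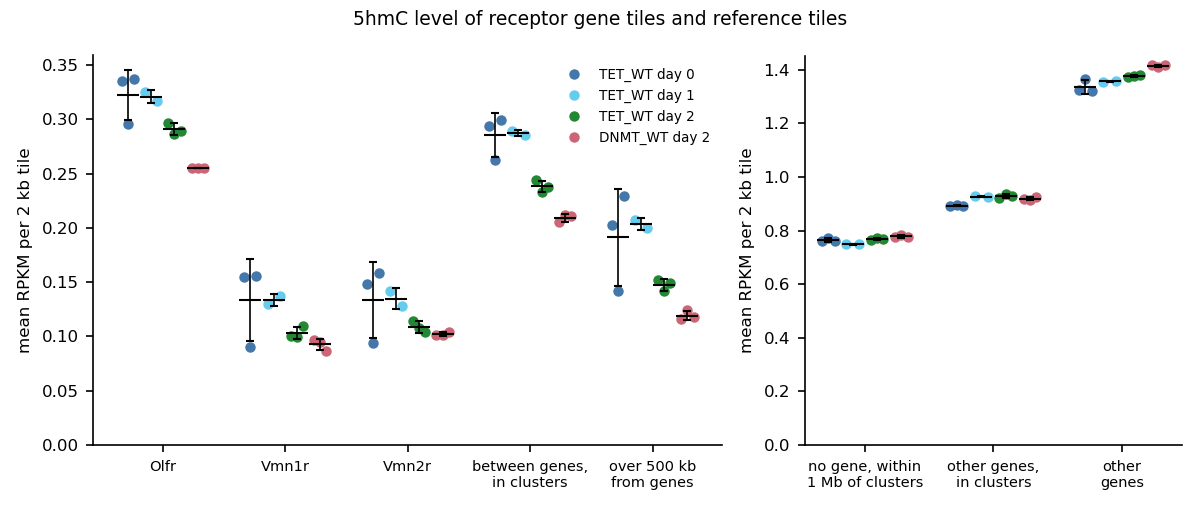
Mean RPKM per 2 kb tile (vertical axes) for the 3 receptor families, for tiles without a gene inside their clusters and for tiles over 500 kb from genes (left), and for 3 classes of higher tiles (right, on a longer axis). Points are libraries, lines are group means and bars are SD (n = 3, and n = 2 on day 1); Olfr tiles lie between 0.255 and 0.337 RPKM and other genes between 1.32 and 1.42.

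A small number of tiles carried most of the signal. The 43 highest member tiles (1%) held 24.2% of the summed RPKM, the highest 214 (5%) held 51.9% and the highest 428 (10%) held 64.1%. The median member tile had 0.0726 RPKM, against 0.335 for all autosomal tiles. At or above the autosomal mean were 165 member tiles, 3.85% of them, against 42.1% of the tiles of other genes. By gene, 56 Olfr and 2 Vmn1r genes and 0 Vmn2r genes reached 1 RPKM, 3.99% of members against 66% of other protein-coding genes.

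The 5 members with the highest values over all libraries were Olfr281, Olfr283, Olfr750, Olfr314 and Olfr71. Olfr281 (chr15:98456312-98457247) had 13.8, 14.2 and 12.1 RPKM on day 0, 10.1 and 8.62 on day 1, 10.5, 10.8 and 11.2 on day 2 and 9.74, 10.1 and 12.3 in DNMT_WT. Its day 0 libraries were above all TET_WT day 1 and day 2 libraries, and the DNMT_WT values overlapped those of day 2. Olfr283 (chr15:98378096-98379197), in the same cluster, had 8.10, 9.03 and 7.58 RPKM on day 0, 9.65 and 10.2 on day 1, 10.4, 10.1 and 10.2 on day 2 and 10.1, 8.89 and 11.8 in DNMT_WT. There day 0 was the lowest TET_WT group. Olfr314 (6.48 RPKM over all libraries) overlaps Fam183b, so its tile may hold signal of either gene, and Olfr71 averaged 6.23 RPKM.

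The 5 lowest members among those with enough reads to be tested were Vmn2r20, Vmn2r98, Vmn2r96, Vmn2r108 and Vmn2r101, with 0.0245, 0.0318, 0.0356, 0.0375 and 0.038 RPKM. Of these, 4 lie on chromosome 17 and Vmn2r20 lies on chromosome 6 and overlaps Gm18375. Vmn2r101 (chr17:19577231-19612317) had 63, 4 and 35 reads on day 0, 7 and 23 on day 1, 26, 12 and 6 on day 2 and 18, 9 and 8 in DNMT_WT over 19 tiles, and its RPKM ranges overlapped between all groups except day 1 and DNMT_WT. Many more genes are at such levels but were not tested, since only 375 members (261 Olfr, 26 Vmn1r and 88 Vmn2r) averaged at least 10 reads per library. The long spans of Vmn2r genes passed this limit in 72.1% of cases, against 23.7% of Olfr and 11.4% of Vmn1r genes, so the tested members are not a fair sample of the families.

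Joining genes less than 1 Mb apart gave 65 clusters, of which 28 hold 10 or more members (1330 genes). The 28 large clusters ran from 0.0187 to 1.28 RPKM, with a median of 0.161. The highest clusters of any size were at chr4:43695000-43855463 (6 Olfr, 2.95 RPKM), chr15:98186011-98498406 (9 Olfr, with Olfr281 and Olfr283, 2.32 RPKM) and chr6:116492669-116582944 (5 Olfr, 2.06 RPKM). Among the large ones, chr11:58454915-59614225 (24 Olfr) was highest with 1.28 RPKM. The lowest was chr7:20101158-24055691, with 86 Vmn1r genes at 0.0187 RPKM, where 51.5% of member tiles had no read in any library while the flanking 1 Mb stood at 2.21 RPKM. The flank was above the members in 28 of the 28 large clusters and the between-gene tiles in 20. Across the 65 clusters the levels of members and flanks correlated with a Spearman rho of 0.410 and a Pearson r of 0.428 on the log2 scale, a description over clusters measured in the same libraries.

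The comparison of day 2 with day 0 asks how receptor 5hmC changed as TET_WT ES cells became EpiLC. Of the 375 tested members, 19 rose and 32 fell (limma, Benjamini-Hochberg adjusted p under 0.05 over 19338 protein-coding genes tested, two-sided). Among all tested genes 22.4% rose and 7.36% fell, 29.8% in all, against 13.6% of members. The median difference on the log2(RPKM + 0.05) scale was -0.15 for members and 0.09 for all tested genes. The member median was -0.08, -0.29 and -0.04 without day 0 replicate 1, 2 and 3. Centring each library on its median gene changed the split to 12 rising and 51 falling members. Of all 19338 tested genes 2659 then rose and 2815 fell. Centring by chromosome gave 12 and 55 members, and 49% of all called genes were then higher. By family, 18 of 261 Olfr genes rose and 25 fell, 1 of 26 Vmn1r rose and 2 fell, and 0 of 88 Vmn2r rose and 5 fell. Without day 0 replicate 2, the library that stood apart, 21 members rose and 60 fell, and without day 2 replicate 2, 13 rose and 15 fell. Of all genes called in these fits, 69.84% and 77.83% rose.

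**Figure D3:**
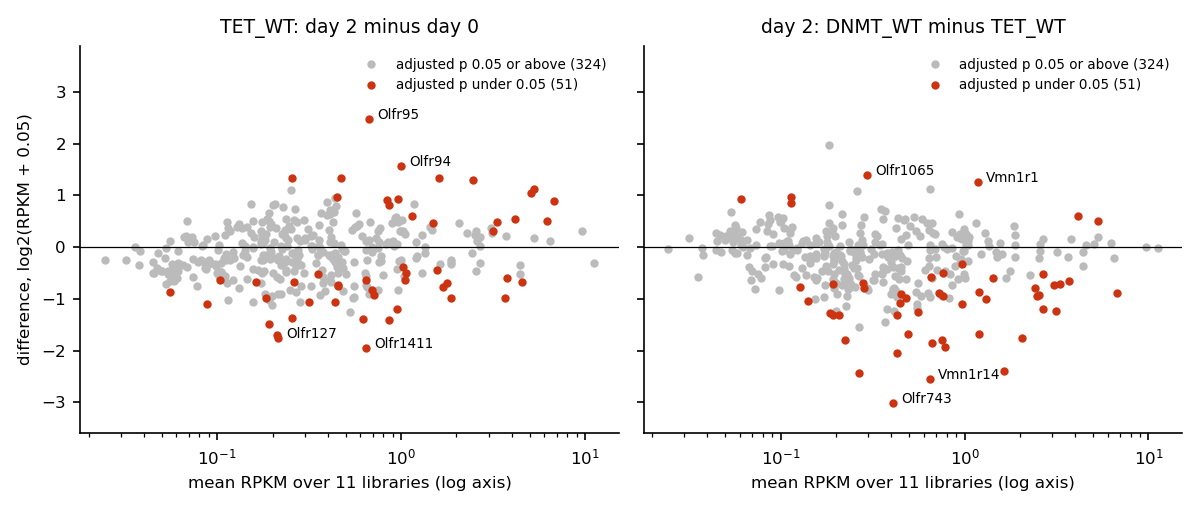
Difference of each of the 375 tested receptor genes (vertical axes, log2(RPKM + 0.05)) against its mean RPKM over the 11 libraries (horizontal axes, log axis), for day 2 minus day 0 in TET_WT (left) and for DNMT_WT minus TET_WT on day 2 (right). Each point is a gene, and red points are the 51 genes with an adjusted p under 0.05 in each panel; on the left they lie on both sides of 0, on the right 44 of 51 lie below it.

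Olfr95 (chr17:37210913-37211851) rose most. It had 0.225, 0.195 and 0.0235 RPKM on day 0, 0.158 and 0.169 on day 1, 1.03, 0.862 and 0.806 on day 2 and 1.60, 0.917 and 1.37 in DNMT_WT. All day 2 libraries of both lines were above all day 0 and day 1 libraries. The log2 difference was 2.47 ± 0.42 (SE; limma adjusted p = 0.00185), a 5.55-fold rise on that scale, from 10, 5 and 1 reads to 25, 15 and 19. The printed window of Olfr95 lies over this gene's only tile and the next one.

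Its neighbour Olfr94 (chr17:37196806-37197966) had 0.675, 0.272 and 0.540 RPKM on day 0, 0.316 and 0.380 on day 1, and 1.86, 1.15 and 1.53 on day 2. Day 2 was again above all earlier libraries, with a log2 difference of 1.57 (limma adjusted p = 0.00205). When the span was widened by 2 kb on each side the difference of Olfr94 turned to -0.16 (limma adjusted p = 0.519).

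Olfr1342 (chr4:118689152-118693034) had 0.997, 0.856 and 0.611 RPKM on day 0, 1.48 and 1.69 on day 1, 1.96, 2.07 and 2.29 on day 2 and 1.86, 1.88 and 2.00 in DNMT_WT. Its libraries were ordered by day without overlap, and the day 2 rise was 1.33 ± 0.15 (limma adjusted p = 0.000182). Olfr1344 (chr7:6439902-6440867) had 1.57, 1.67 and 1.32 RPKM on day 0, 2.61 and 2.62 on day 1, 4.01, 3.82 and 3.58 on day 2 and 1.70, 2.4 and 1.86 in DNMT_WT. It too was ordered by day in TET_WT, with a rise of 1.30 ± 0.12 (limma adjusted p = 9.66e-05), and the DNMT_WT libraries lay between those of day 0 and day 1. The rises of Olfr95, Olfr1342 and Olfr1344 stayed past the threshold in each alternative run, 23 for Olfr95 and 24 for each of the other two.

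The cluster that holds Olfr1342, chr4:118665519-118934840 with 13 Olfr genes, was the only one of the 28 large clusters whose member mean was higher in all day 2 than in all day 0 libraries. It had 0.357, 0.300 and 0.327 RPKM on day 0, 0.428 and 0.451 on day 1, 0.501, 0.486 and 0.490 on day 2 and 0.507, 0.482 and 0.465 in DNMT_WT. Of its 8 tested genes, Olfr1342 and Olfr62 rose (Olfr62 by 0.96, limma adjusted p = 0.0288). Between-gene tiles there went from 0.333 to 0.362 RPKM and the flank from 1.93 to 2.16. Of the remaining large clusters, 6 were lower on day 2 without overlap and 21 overlapped, while among 1 Mb bins of chromosomes 1 to 19 the libraries did not overlap in 19.3% (higher) and 22% (lower).

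The other rises among the 6 largest were those of Olfr419 (1.34, limma adjusted p = 0.0318) and Vmn1r87 (1.33, limma adjusted p = 0.0214). Both rest on few reads, 35 and 67 over the 3 libraries of day 0 and of day 2 for Olfr419, and 27 and 47 for Vmn1r87. For Olfr419 the limma adjusted p was 0.0978 and 0.0868 without day 0 replicate 1 and 3, and 0.0746 and 0.114 without day 2 replicate 1 and 3. For Vmn1r87 it was 0.0662 without day 0 replicate 3 and ran from 0.0542 to 0.0647 without day 2 replicate 1, 2 or 3, and with the span widened by 2 kb the difference was 0.27 (0.636).

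The largest falls were those of Olfr1411, Olfr127, Olfr406, Olfr539, Vmn1r83 and Olfr462. Olfr406 (chr11:74269391-74270362) had 0.472, 0.350 and 0.294 RPKM on day 0, 0.316 and 0.444 on day 1, 0.103, 0.0287 and 0.127 on day 2 and 0.0702, 0.0353 and 0.098 in DNMT_WT. All day 2 libraries of both lines were below all day 0 and day 1 libraries, and the difference was -1.69 ± 0.33 (limma adjusted p = 0.00367). Vmn1r83 (chr7:12320250-12322128) had 1.75, 1.24 and 1.07 RPKM on day 0 and 0.455, 0.517 and 0.445 on day 2, a fall without overlap of -1.40 ± 0.26 (limma adjusted p = 0.00277). Olfr462 (chr11:87888959-87889894) had 1.01, 0.817 and 0.822 RPKM on day 0 and 0.207, 0.517 and 0.255 on day 2, also without overlap (-1.39, limma adjusted p = 0.00336). At equal depth Olfr406, Vmn1r83 and Olfr462 had limma adjusted p of 0.679, 0.0886 and 0.346, and with the span widened by 2 kb Olfr462 differed by -0.40 (0.0733).

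The remaining 3 falls lost the call without single libraries. Olfr1411 differed by -1.95 (limma adjusted p = 0.0274), and its adjusted p was 0.0739, 0.0598 and 0.0501 without day 0 replicate 1, 2 and 3 and 0.107 without day 2 replicate 2. Olfr127 differed by -1.76 (limma adjusted p = 0.0176), with 0.0552 without day 0 replicate 1, 0.073 without day 2 replicate 2 and 0.0506 without day 2 replicate 3. Olfr127 differed by -0.33 once its span was widened by 2 kb (limma adjusted p = 0.29). Olfr539, which overlaps Gm39112, differed by -1.48 (limma adjusted p = 0.0395) and had adjusted p of 0.135 and 0.133 without day 0 replicate 1 and 3. For Olfr539 it was 0.0717, 0.094 and 0.113 without day 2 replicate 1, 2 and 3, and 0.0501 and 0.0547 without DNMT_WT replicate 1 and 3.

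Single tiles were also tested, 3436 of the 4284 member tiles against 1183891 tiles of chromosomes 1 to 19 and X. Of these 28 rose and 24 fell on day 2 (limma, adjusted p under 0.05), where 5.33% of all tiles rose and 2.68% fell, 8.01% in all. Centring each library on its median tile gave 27 and 9, against 51329 rising and 12308 falling of all tested tiles. Tiles with the largest rises lay at Vmn2r85, Olfr95 and Vmn1r4, and those with the largest falls at Vmn2r91, Olfr509 and Vmn2r97. The Vmn1r4 tile (chr6:56946001-56948000) had 4, 4 and 3 reads on day 0 and 22, 25 and 11 on day 2 (log2 RPKM difference 3.09, limma adjusted p = 0.00237). The Vmn2r91 tile (chr17:18118001-18120000) had 32, 15 and 28 reads on day 0 and 1, 2 and 4 on day 2 (difference -2.81, limma adjusted p = 0.0117). The Vmn2r85 tile (chr10:130420001-130422000) had 0, 0 and 4 reads on day 0 and 7, 9 and 11 on day 2 (limma adjusted p = 0.00315). At such depths the value the authors set for empty tiles, that of 0.9 reads, enters the difference.

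**Figure D4:**
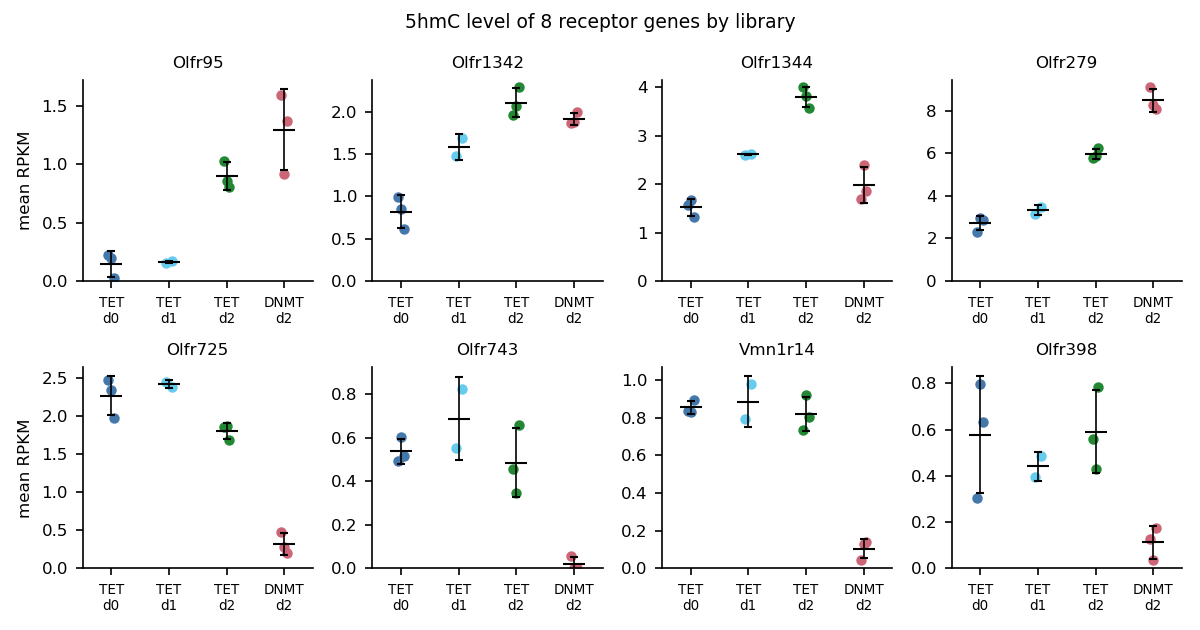
Mean RPKM over the gene's tiles (vertical axes) for 8 receptor genes in the 4 groups (horizontal axes, TET_WT day 0, 1 and 2 and DNMT_WT day 2). Points are libraries, lines are means and bars are SD; Olfr95, Olfr1342, Olfr1344 and Olfr279 are higher on day 2 than on day 0 in TET_WT, and Olfr725, Olfr743, Vmn1r14 and Olfr398 are lower in DNMT_WT.

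Day 1 has 2 libraries, and its comparisons are the least certain. The 3 TET_WT comparisons share libraries, so their calls are not independent of each other. From day 0 to day 1, 4 Olfr genes rose (Olfr1065, Olfr1342, Olfr1344 and Olfr332) and 2 fell (Olfr1459 and Olfr286), with no Vmn gene called, 1.6% of members where 2.22% of all genes were called. The member median was 0.04, and it was 0.14, -0.06 and 0.09 without day 0 replicate 1, 2 and 3 and 0.08 and 0.00 without day 1 replicate 2 and 3. Olfr1342 differed by 0.93 (limma adjusted p = 0.0242), Olfr1344 by 0.77 (0.0251) and Olfr1065 by 1.79 (0.0263), while Olfr332 differed by 0.65 (0.0369), Olfr1459 by -1.45 (0.0201) and Olfr286 by -0.67 (0.0386). None of the 6 passed without day 1 replicate 2, the shallowest library, where the adjusted p ran from 0.0856 for Olfr1459 to 0.206 for Olfr286. Nor did any pass with the replicate block, with only the groups compared, with the mean of log2 tiles or with voom. In all, 1 member was called without day 0 replicate 1 and 23 without day 0 replicate 2.

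Olfr1065 (chr2:86445013-86446004) was the member with the largest day 1 rise and did not keep it. It had 0.0787, 0.0584 and 0.176 RPKM on day 0, 0.395 and 0.528 on day 1, 0.186, 0.201 and 0.106 on day 2 and 0.393, 0.564 and 0.568 in DNMT_WT. Day 1 was above every other TET_WT library and overlapped the DNMT_WT libraries. It stood on 5 and 25 reads on day 1. Olfr1459 (chr19:13145734-13146657) had 1.47, 1.28 and 0.951 RPKM on day 0, 0.475 and 0.359 on day 1 and 0.682, 0.459 and 0.764 on day 2, with both later days below day 0.

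From day 1 to day 2, 12 members rose and 9 fell, against 9.89% and 2.31% of all tested genes. The member median was -0.18 and that of all genes 0.04. Centring on the median gene gave 9 and 12 members, against 1366 rising and 1038 falling of all 19338 tested genes. Of the 21, 20 are Olfr genes and the other is Vmn1r83. Olfr279 (chr15:98497474-98498406) had 2.33, 2.96 and 2.88 RPKM on day 0, 3.16 and 3.49 on day 1, 5.77, 5.89 and 6.26 on day 2 and 9.11, 8.25 and 8.09 in DNMT_WT. Its libraries did not overlap between any of these groups, and the day 1 to day 2 difference was 0.84 ± 0.11 (limma adjusted p = 0.00144), past the threshold in each of the 24 alternatives. Olfr94 differed by 1.95 (limma adjusted p = 0.00351), by 0.16 with the span widened by 2 kb (0.619), and missed the threshold with voom (0.0622).

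The others among the 6 largest in each direction were Olfr95, Olfr642, Olfr1337 and Olfr1359 upward, and Olfr984, Olfr726, Olfr406, Olfr462, Olfr1065 and Vmn1r83 downward. Of these 10 genes, all but Olfr406 lost the call without day 1 replicate 2. The adjusted p was then 0.172 for Olfr984, 0.068 for Olfr726, 0.0931 for Olfr462, 0.088 for Olfr1065, 0.178 for Vmn1r83, 0.0899 for Olfr95, 0.0648 for Olfr642, 0.188 for Olfr1337 and 0.095 for Olfr1359. Without day 1 replicate 3 it was 0.0814 for Olfr406, 0.0815 for Olfr984, 0.151 for Olfr1065 and 0.0583 for Olfr95. Leaving out single day 2 libraries also ended calls of Olfr984, Olfr1065, Vmn1r83, Olfr95 and Olfr1337 (0.0508 to 0.0998). Over all members, 8 calls were made without day 1 replicate 2, 33 without day 0 replicate 2, and 12, 11 and 11 without day 2 replicate 1, 2 and 3. For Olfr642 and Olfr1337 day 1 replicate 2 held 0 reads.

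Among tiles, 7 rose and 5 fell from day 0 to day 1 (0.601% and 0.409% of all tiles) and 10 rose and 0 fell from day 1 to day 2 (2.41% and 0.551%). The split between day 1 and day 2 turned with the processing: 1 rose and 16 fell at equal depth, 11 and 11 with only the groups compared, and 9 and 11 without day 1 replicate 3. Of all tiles called in these fits, 42.9%, 76.4% and 82.75% were higher on day 2. At an unadjusted limma p under 0.05, 229 of 3436 member tiles were lower on day 2 than on day 1 and 28 higher. Of all 1183891 tested tiles 81167 were lower and 79284 higher in the same sense. The value given to an empty tile scales with 1 read, which was worth 0.158 RPKM in day 1 replicate 2 and 0.0225 in the deepest library, and 56.9% of member tiles were empty there. Without that library the member median of tile differences between day 0 and day 1 went from 0.49 to -0.03. Among the 3 tiles with the largest rises was one in Vmn2r1 (chr3:64084001-64086000), with 2 and 13 reads on day 1 and 58, 36 and 44 on day 2 (difference 2.33, limma adjusted p = 0.000172), after 45, 41 and 35 on day 0. The Olfr95 tile rose in this comparison too (2.45, limma adjusted p = 0.0414), as did the Olfr1033 tile (2.29, limma adjusted p = 0.0183).

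In clusters, 19 of the 28 large arrays were lower on day 2 than on day 1 without overlap, 1 was higher (the chromosome 4 array with Olfr1342) and 8 overlapped. Of the 1 Mb bins of the autosomes, 56% were lower and 25.2% higher in the same sense. Between day 0 and day 1, 2 clusters were lower, 1 higher and 25 overlapped, against 13.4% and 18% of bins.

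The comparison of the 2 parental lines on day 2 asks how far the 5hmC signal at receptor genes differs between the lines. The values carry no input correction, and DNA copy number in the 2 lines was not tested. The line comparison shares the TET_WT day 2 libraries with the comparisons above. In DNMT_WT 7 members were higher and 44 lower (limma, adjusted p under 0.05), where 21% of all tested genes were higher and 7.62% lower. The member median was -0.15 and that of all genes 0.11. Centring on the median gene gave 3 and 55 members, against 2035 higher and 2738 lower of all 19338 tested genes. Centring by chromosome gave 3 and 65, and 41% of all called genes were then higher. Of the 44, 40 are Olfr, 2 Vmn1r and 2 Vmn2r genes, and all 51 called genes had libraries that did not overlap between the lines. Of all tested genes, called or not, 39.9% were higher and 18.3% lower without overlap. Without TET_WT day 2 replicate 1 the split was 4 and 29, and 73.31% of all called genes were then higher.

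Olfr743 (chr14:50533414-50534349) showed the largest difference. It had 0.455, 0.345 and 0.658 RPKM in TET_WT day 2 and 0.0561, 0 and 0 in DNMT_WT, or 22, 12 and 31 reads against 4, 0 and 0. Its day 0 and day 1 libraries, from 0.495 to 0.824 RPKM, were also all above DNMT_WT. The log2(RPKM + 0.05) difference was -3.02 ± 0.31 (limma adjusted p = 0.000176). Its tile chr14:50534001-50536000 held 22, 12 and 28 reads in TET_WT and 1, 0 and 0 in DNMT_WT (limma adjusted p = 1.53e-08).

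Vmn1r14 (chr6:57226155-57234350) had 0.736, 0.919 and 0.806 RPKM in TET_WT day 2 and 0.0449, 0.127 and 0.141 in DNMT_WT, with 0.791 to 0.980 RPKM in the earlier TET_WT libraries. The ranges of all TET_WT groups overlapped each other and lay above DNMT_WT, with a line difference of -2.56 ± 0.23 (limma adjusted p = 0.000101). The difference lay in the first tiles of the span: tile chr6:57228001-57230000 held 33, 29 and 39 reads against 0, 3 and 3 (limma adjusted p = 1.35e-12), whereas the tile of the printed window had group means of 0.0279 and 0.0542 RPKM. Olfr725 (chr14:50029353-50035500) had 1.86, 1.87 and 1.69 RPKM in TET_WT and 0.477, 0.282 and 0.196 in DNMT_WT, again without overlap (-2.40 ± 0.22, limma adjusted p = 9.79e-05).

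Olfr398 (chr11:73983662-73984606) had 0.558, 0.431 and 0.785 RPKM in TET_WT day 2 and 0.126, 0.0353 and 0.176 in DNMT_WT, a difference of -2.06 ± 0.40 without overlap (limma adjusted p = 0.00466). Vmn1r20 (chr6:57431691-57432602) held 22, 8 and 17 reads against 7, 0 and 0 (-2.43, limma adjusted p = 0.00258), and Olfr1509, which overlaps Tcra, held 16, 19 and 16 against 11, 1 and 5 (-1.93, limma adjusted p = 0.00854). Olfr743, Vmn1r14, Olfr725 and Olfr398 stayed past the threshold in each alternative run. Vmn1r20 (0.0671) and Olfr1509 (0.0685) missed it when all libraries were thinned to equal depth.

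The members higher in DNMT_WT were fewer and less stable. Olfr1065, described above, was higher by 1.39 ± 0.29 (limma adjusted p = 0.00692), and missed the threshold with the mean of log2 tile values (0.0567). The others named were Vmn1r1 (1.26, 0.0447), Olfr46 (0.96, 0.0385), Vmn2r55 (0.93, 0.0261), Olfr1033 (0.85, 0.0184) and Olfr543 (0.61, 0.0258). With chromosome centring these 5 had adjusted p of 0.0606, 0.164, 0.124, 0.0668 and 0.216. Without DNMT_WT replicate 3 they had 0.0601, 0.142, 0.0926, 0.0783 and 0.091. Vmn1r1 (chr1:182157178-182158098) had 0.827, 0.488 and 1.57 RPKM in TET_WT day 2 and 2.95, 2.01 and 1.65 in DNMT_WT, where the lowest DNMT_WT library lay just above the highest of TET_WT.

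On chromosome 14 the summed level of an array differed between the lines. The array at chr14:49894258-52495695 holds 36 Olfr and 2 Vmn2r genes, and its 85 member tiles had 0.504, 0.495 and 0.471 RPKM in TET_WT day 2 and 0.272, 0.224 and 0.244 in DNMT_WT. That is 0.504 of the TET_WT level, without overlap, and the day 0 and day 1 means were 0.554 and 0.566 RPKM. Of the 38 genes, 30 had a lower mean in DNMT_WT and 15 were lower without overlap, with 0 higher without overlap, where 18.3% of all tested genes were lower and 39.9% higher without overlap. Olfr725, Olfr740, Olfr743, Olfr750, Olfr1513, Olfr1512 and Olfr1509 were called, 7 of 20 tested.

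The difference was not limited to receptor genes there. Between-gene tiles of the array fell from 0.598 to 0.307 RPKM between TET_WT and DNMT_WT, and its flank from 0.589 to 0.349. All other tiles of chromosome 14 went from 1.04 to 0.677 RPKM, a ratio of 0.653, with each DNMT_WT library below each TET_WT library. When each library was centred on its median gene of the same chromosome, 6 of the 7 kept an adjusted p under 0.05, with differences of -1.89 for Olfr725, -2.50 for Olfr743, -0.38 for Olfr750, -1.17 for Olfr1513, -0.72 for Olfr1512 and -1.42 for Olfr1509. Olfr740 did not (-0.28, limma adjusted p = 0.459), and Olfr741, uncalled before (0.58, 0.233), was then higher in DNMT_WT (1.09, 0.0457).

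**Figure D5:**
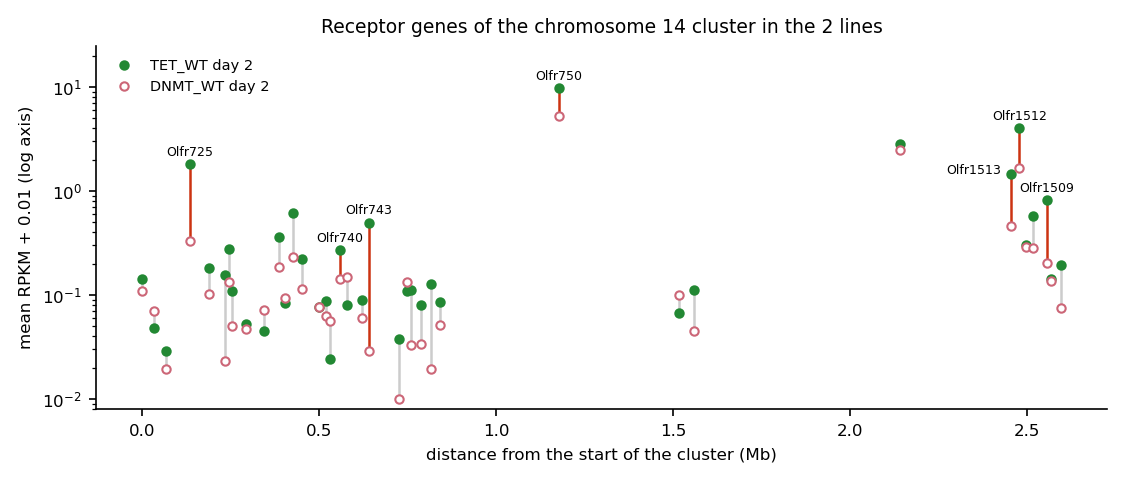
Mean RPKM + 0.01 (vertical axis, log axis) of the 38 receptor genes of the chromosome 14 cluster against distance from the cluster start (horizontal axis, Mb) in TET_WT (filled) and DNMT_WT (open) on day 2. Points are means of 3 libraries and lines join the 2 values of a gene; the 7 named genes with red lines are the called ones, and 30 of 38 genes lie lower in DNMT_WT.

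Chromosome 6 showed a smaller shift of the same direction, with copy number again not tested. Its member tiles had 0.203 RPKM in TET_WT day 2 and 0.145 in DNMT_WT (ratio 0.715) and its other tiles 0.911 and 0.789 (ratio 0.866), both without overlap. Of its 30 tested members 7 were lower (Vmn1r14, Vmn1r20, Olfr212, Olfr214, Olfr215, Olfr455 and Olfr460), where 7.62% of all tested genes were lower. The Vmn1r array at chr6:56923914-58472878 had 0.142, 0.172 and 0.154 RPKM against 0.0831, 0.0659 and 0.0928, and the Olfr array at chr6:41771353-43236575 had 0.199, 0.302 and 0.284 against 0.159, 0.168 and 0.108. With chromosome centring Vmn1r14 differed by -2.44 (limma adjusted p = 0.000182) and Vmn1r20 by -2.32 (0.00492). Values with that centring are not given here for the Olfr genes named. Over all 28 large clusters 11 were lower in DNMT_WT without overlap, 0 higher and 17 overlapped, where 53% of 1 Mb bins were lower and 27.5% higher.

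Among tiles, 5 were higher and 40 lower in DNMT_WT, with 1% and 2.24% of all tiles as background, 3.24% in all. Centring on the median tile gave 5 and 20, against 9605 higher and 8944 lower of all 1183891 tested tiles. Among the higher tiles were those in Vmn2r53, Vmn2r55 and Vmn1r1. The Vmn2r55 tile (chr7:12672001-12674000) had 3, 2 and 9 reads in TET_WT day 2 and 55, 17 and 47 in DNMT_WT (difference 3.10, limma adjusted p = 0.000624), and the Vmn2r53 tile (chr7:12588001-12590000) had 0, 0 and 0 against 12, 5 and 9 (limma adjusted p = 0.0274). Both lie in the mixed Vmn array of chromosome 7 whose member mean was 0.088, 0.0772 and 0.086 RPKM in TET_WT day 2 and 0.0822, 0.0822 and 0.0757 in DNMT_WT.

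Genes called in both the day 2 against day 0 and the line comparison were Olfr322, Olfr750, Olfr279, Olfr1264, Olfr1344 and Olfr543. The 2 comparisons share the TET_WT day 2 libraries, so a low or high value there moves both. Olfr750 (chr14:51070311-51071442) had 5.38, 5.29 and 4.93 RPKM on day 0, 6.80 and 7.52 on day 1, 9.55, 9.65 and 9.80 on day 2 and 5.89, 4.73 and 5.02 in DNMT_WT, so DNMT_WT lay at the TET_WT day 0 level (0.89 and -0.89). Olfr1344 differed by 1.30 over time and -0.93 between lines, and Olfr322 by 0.49 and -0.71. Olfr279 was higher in both (1.13 and 0.50), as was Olfr543 (0.55 and 0.61), and Olfr1264 was lower in both (-0.73 and -0.90).

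Genes of the machinery around the receptors had higher median levels. The list of olfactory and vomeronasal signalling genes (20, all tested) had a median of 2.26 RPKM and the list of receptor choice and silencing genes (26, all tested) one of 1.61, against 0.0919 for members and 1.52 for other autosomal protein-coding genes. These are levels per length, and they ran from 0.123 to 5.77 RPKM in the signalling list and from 0.334 to 4.40 in the other, so both lists overlap the range of the receptors.

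Among the signalling genes, 4 rose and 2 fell on day 2 against day 0, with a median difference of 0.07. That is 20% and 10%, close to the 22.4% and 7.36% of all tested genes. Centring on the median gene gave 1 and 4 in the list, and 2659 and 2815 among all 19338 tested genes. Those that rose were Gng13, a G protein gamma subunit of sensory cells (1.07, limma adjusted p = 0.00661), Omp, the olfactory marker protein (0.41, 0.0182), Gnb1, a G protein beta subunit (0.38, 0.0125), and Trpc2, the channel of vomeronasal transduction (0.32, 0.00814). Cnga4, a subunit of the olfactory cyclic nucleotide-gated channel, fell (-0.85, limma adjusted p = 0.00173), as did Gnal, the alpha subunit coupled to odorant receptors (-0.38, 0.00298). From day 1 to day 2 Trpc2 (0.34) and the phosphodiesterase gene Pde4a (0.43) rose and 0 fell. From day 0 to day 1 limma called 0, with the smallest p for Rtp1, a chaperone of odorant receptors (-0.49, adjusted p = 0.105), and Gnb1 (0.32, adjusted p = 0.136). In DNMT_WT Gnai2 (0.47) and Trpc2 (0.31) were higher and Ano2, a chloride channel of olfactory cilia (-0.68), Rtp2 (-0.43) and Rtp1 (-0.40) were lower. With median centring the counts were 0 and 1 from day 1 to day 2 and 1 and 4 between the lines. All tested genes then gave 1366 and 1038, and 2035 and 2738.

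In the receptor choice and silencing list, 12 genes rose and 0 fell on day 2 against day 0, with a median of 0.29. That is 46.2% and 0%, where 22.4% and 7.36% of all tested genes were called. Centring on the median gene gave 8 and 2 in the list, and 2659 and 2815 among all 19338 tested genes. The largest was Cbx1, a heterochromatin protein (1.26, limma adjusted p = 3.56e-05), followed by Suv39h1, a histone methyltransferase of heterochromatin encoded on chromosome X (0.95, 0.000515). The others were Tfap2e (0.64), Ldb1 (0.55), Atf5 (0.55), Cbx5 (0.51), Lhx2 (0.48), Ebf1 (0.48), the histone demethylase gene Kdm1a (0.41), Ebf2 (0.39), Bcl11b (0.32) and the nuclear envelope gene Lbr (0.30). Lhx2, Ldb1, Ebf1 and Ebf2 act at the enhancers of receptor genes, and Tfap2e and Bcl11b in vomeronasal neurons. On day 1, Lbr, Cbx1 and Tfap2e rose and 0 fell, and from day 1 to day 2 Cbx1, Suv39h1, Atf5, Ldb1 and Lhx2 rose and 0 fell. In DNMT_WT 12 were higher (Suv39h1 by 0.85, Ldb1 by 0.77, Lhx2 by 0.67 and Emx2 by 0.64, and also Lbr, Ebf4, Bcl11b, Cbx1, Bptf, Atf5, Tfap2e and Cbx5) and Ebf2 was lower (-0.80, limma adjusted p = 5.96e-05). Of all tested genes 21% were higher and 7.62% lower in DNMT_WT. With median centring the list gave 3 and 0 on day 1, 2 and 0 from day 1 to day 2 and 7 and 1 between the lines. All tested genes then gave 225 and 290, 1366 and 1038, and 2035 and 2738.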

How the data were processed

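Genomic DNA of 11 libraries in 4 groups was enriched for 5hmC with the HMCP kit, after sonication of 10 ng to about 150 bp, per the labels' protocols. Per the submitters' processing notes, reads were handled with Trim Galore 0.6.5, cutadapt 2.3 and Bowtie2 2.4.1 on GRCm38; the mapping quality and duplicate filters are not given in the sources used here. The deposited values are log2 RPKM per 2 kb tile, made by the authors, with tiles without reads set to the value of 0.9 reads. Values carry no input or CpG correction, and the recovered reads are 2.32 times the total that the RPKM scale implies, whose basis is not given in the sources used here. Whole reads were recovered within 0.1% for 100% of values, from 7342015 to 51604034 per library, so counts, and with them precision, are lowest on day 1.

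The members and gene lists were chosen with earlier results of these data known. Tiles (1183891 tested) and protein-coding genes (19338 tested, log2 of the mean RPKM over span tiles + 0.05, at least 10 reads on average) were fitted over all 11 libraries with limma 3.58.1 (lmFit and eBayes with trend, two-sided, Benjamini-Hochberg) in R 4.3.3. A difference on this scale understates the change of low genes. Named were the 6 called genes and 3 called tiles with the largest difference per direction and comparison, and the 5 highest and 5 lowest tested genes; other names are members of clusters, lists or counts. Alternatives covered scaling, filters, pseudocounts, depth, span, samples, a replicate block and leaving out each library. Simulated data gave, for day 2 against day 0, 68 of 100 genes changed 2-fold and 100 of 100 changed 4-fold, and 12 and 82 of 100 tiles. The changed features were drawn from tested genes and tiles at large, so these rates are not those of receptor genes. Median reads per gene were 4.55 over all 1454 members, tested or not, and 443 over other autosomal protein-coding genes. Gene spans came from RefSeq's GRCm38.p6 tables, as did promoters.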

Additional observations from a re-analysis of the deposited data

How the results depend on the processing

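Gene calls were 51 for day 2 against day 0, 6 for day 1 against day 0, 21 for day 2 against day 1 and 51 between the lines, and tile calls 52, 12, 10 and 45. For day 2 against day 0, genes numbered 86 with spans extended by 2 kb, 22 at equal depth and 28 to 81 without 1 library (28 without day 2 replicate 2, 81 without day 0 replicate 2), and tiles 6 without the variance trend, 12 at equal depth and 33 to 60 without 1 library. For day 1 against day 0, genes numbered 0 with the replicate block, with only the groups compared, with the mean of log2 tiles and with voom, where limma gave 28 higher and 29 lower, 20 and 24, 134 and 23, and 16 and 14 at an unadjusted p under 0.05. They numbered 10 with no filter, 11 with 2 kb extension, 1 at equal depth, 10 with chromosome centring and 0 to 23 without 1 library (limma, 24 higher and 18 lower unadjusted without day 1 replicate 2). Tiles there numbered 0 with median centring and without the trend (limma, unadjusted 279 and 23, and 346 and 41), 3 with only the groups compared, 20 with no filter, 3 with voom and 3 to 19 without 1 library. With median centring, 88873 of all 1183891 tested tiles were higher and 30476 lower at an unadjusted limma p under 0.05. The other unadjusted counts in this paragraph are of members, and their shares over all features are not given here. For day 2 against day 1, genes numbered 33 with only the groups compared, 11 at 30 reads, 5 at equal depth, 2 with voom and 8 to 33 without 1 library, and tiles 0 without the trend (limma, unadjusted 31 and 359), 22 with only the groups compared, 17 at equal depth, 1 with voom and 3 to 20. Between the lines, genes numbered 89 with only the groups compared, 32 at 30 reads, 87 with 2 kb extension, 28 at equal depth and 33 to 69 without 1 library, and tiles 25 with median centring, 9 without the trend, 3 at equal depth and 25 to 56. The causes were not tested.

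The level of member tiles that overlap no other gene was 0.217 RPKM on day 1, 0.189 on day 2 and 0.167 in DNMT_WT. The median tile on the log2 scale corresponded to 0.0718, 0.110, 0.0626 and 0.0631 RPKM. Without 1 library the mean was 0.218 to 0.245 on day 0, 0.223 to 0.232 on day 1, 0.197 to 0.201 on day 2 and 0.178 in DNMT_WT. The only named gene that reversed was Olfr94 for day 2 against day 0, at -0.16 with 2 kb extension. Whether replicate numbers pair the libraries could not be decided. Correlations of deviations from group means ran from -0.046 to 0.13 between same-numbered libraries and from -0.12 to 0.088 between the others. Deviations within a group sum to 0, so these correlations are tied to each other. The replicate block gave 48, 0, 18 and 51 genes. An edgeR fit was not run, since the deposited unit is log2, and voom used library totals without TMM scaling. Depth limits the low members: most tiles hold few reads.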

Other observations

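Relatives of the members that the rule leaves out were low as well. The 580 receptor pseudogenes analysed (1735 tiles) averaged 0.283, 0.283, 0.234 and 0.208 RPKM on days 0, 1 and 2 of TET_WT and in DNMT_WT, and the 7 receptor genes on chromosome X averaged 0.0654 RPKM over all libraries.

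Other chemosensory families were spread widely. The 15 Taar genes, receptors for amines in the nose, averaged 1.61, 1.31, 1.29 and 0.979 RPKM in the same order. The 3 Tas1r genes, which encode sweet and umami receptors, averaged 2.37, 2.85, 3.21 and 4.29 RPKM, whereas the 35 Tas2r genes, which encode bitter receptors, averaged 0.291, 0.275, 0.173 and 0.122. The 7 Fpr genes, formyl peptide receptors of which some serve the vomeronasal organ, averaged 0.160, 0.172, 0.177 and 0.0992 RPKM, and the 21 Ms4a genes 0.291, 0.351, 0.292 and 0.356. Families outside chemosensation were also spread widely. Over all libraries, tiles averaged 0.0161 RPKM for Skint, 0.0763 for Prl, 0.0973 for Ugt2b, 0.116 for Cyp3a and 0.131 for Pramel. All were below receptor tiles in each group mean. Krt (1.87), Zfp, Defb (0.898), Klk1b (0.618), Krtap (0.542), Cyp2c, Serpina3 and Mup were above in each, whereas Klra and Serpinb9 varied. From day 0 to day 2 the means of Krt, Zfp, Defb, Klk1b, Krtap and Mup rose and the rest fell. Differences between groups were not tested for any of these families.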
